A study of Danio rerio with 6 samples.

Results

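The zebrafish Hox genes were followed in whole embryos in which the promoter of the lncRNA gene *dancr* had been deleted. A Hox gene was taken to be any row of the gene table whose name is hox, a letter for the cluster family, a number for the paralogue group and a letter for the duplicate, and 50 of the 31953 rows met this rule. These rows carry 48 gene names in 7 clusters, since *hoxa9a* and *hoxc10a* are each listed as 2 rows. The second *hoxa9a* row had at most 3 counts in any library and was not tested, while the second *hoxc10a* row is an antisense transcript that was tested on its own, so that 49 rows were tested.

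The 2 groups were *dancr* del F0 crispants and mock control embryos at 30 hpf, with 3 biological replicates each and about 30 embryos in each group. F0 crispants are the injected generation itself and are mosaic, and the guide RNAs were given as a pool of 4. The crispants sequenced were of Class I and II, the classes of the study's severity grading whose embryos had an absent or poorly formed trunk or tail, and the mock control injections lacked the *dancr* crRNA. Wild type AB fish were the study's default strain. RNA was extracted from the whole embryo, so fewer cells of a type and less RNA in each cell cannot be told apart. Because crispants were chosen by their form, loss of tail tissue and regulation of Hox genes within it cannot be told apart either.

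Total counts were between 34425861 and 40515803 in crispants and between 33841805 and 38146940 in mock controls. Mock control replicate 3 stood apart. Its composition (TMM) factor was 0.749, against 0.9878 to 1.143 in the crispants and 1.035 and 1.067 in the other mock controls, and its 100 most abundant genes took 33.4% of all counts, against 24.2% to 26.9% in crispants and 25.2% and 25.7% in the other mock controls. Values that moved by over 1.5 times without it are therefore given both ways for the genes described. No row is named *dancr*. The embedded snoRNA *SNORA26* (chromosome 20, 23182969 to 23183090) had 0, 7 and 4 counts in crispants, against 22, 8 and 16 in mock controls, which is lower in every crispant but too few to check a label. Markers of several germ layers were used to describe whole-embryo identity. Of 11 such genes, 10 passed the filter on low counts, with log2 fold changes between -0.67 and 0.32. Their summed level was 20610 to 27110 CPM in crispants and 23320 to 38650 CPM in mock controls. *krt4* alone had 14200 to 17200 CPM in crispants and 13500 to 23900 CPM in mock controls, so the sum says little about the other markers. The endoderm marker *sox17* was close to 0, at most 0.245 CPM.

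Hox genes encode homeodomain transcription factors that give cells their position along the head to tail axis. Within a cluster the genes lie in the order of the body regions where they act, and members of the same paralogue group in different clusters resemble each other more than their neighbours do. Low-numbered groups act in the hindbrain and pharyngeal arches, middle groups in the trunk and the highest groups in the tailbud, the tail and the ends of the fins. Here groups 1 to 4 are called anterior (13 rows), groups 5 to 8 central (12 rows) and groups 9 to 13 posterior (25 rows, of which 24 were tested).

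Log2 fold changes of crispant over mock control fell from low to high paralogue groups, though not at every step. Genes of group 1 had positive values and both genes of group 2 had negative ones (-0.12 and -0.38). Those of groups 3 to 8 lay on either side of 0. Those of groups 9 to 13 were negative except for the antisense row of *hoxc10a*. The group medians broke the order at group 2 (-0.25), group 6 (0.05) and group 13 (-0.87). The median log2 fold change was 0.13 for anterior genes (8 of 13 above 0), -0.06 for central genes (5 of 12 above 0) and -0.72 for posterior genes (1 of 24 above 0, the antisense row). Over the 14 genes of groups 11 to 13 it was -0.77, with all 14 below 0, between -1.28 and -0.48. Of the 49 Hox rows 35, or 71.4%, had a value below 0, against 54.5% of all 20812 genes tested, whose median was -0.039. With library totals in place of composition factors the median of all genes moved to 0.125, that of the anterior genes to 0.30, that of the central genes across 0 to 0.18 and that of the posterior genes to -0.48, with groups 11 to 13 still at 14 of 14 below 0 and group 1 at 4 of 4 above 0.

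A gene was called where its adjusted p reached 0.05 and its log2 fold change reached 1 or -1. No Hox gene was called, and edgeR's quasi-likelihood test called 0 of all 20812 genes (0.0%). DESeq2 called 0 of 49 Hox rows, against 0.769% of all genes, and edgeR without mock control replicate 3 called 0 of 49, against 0.0935%. With no minimum fold change, DESeq2 without mock control replicate 3 passed 1 Hox gene, *hoxb1b* (log2 fold change 0.73, adjusted p = 0.0328), against 2.39% of all genes. At an unadjusted p under 0.05, 7 Hox rows (14.3%) had lower values in crispants, against 2.47% of all genes, and 0 had higher values, against 3.01%. The levels of the 3 crispants lay entirely below those of the 3 mock controls for 10 Hox rows (20.4%), against 5.44% of all genes, and entirely above them for 0, against 6.5%. Leaving out mock control replicate 1, the lowest of the 6 libraries for 15 of the 48 genes, raised that count of 10 to 23, against 10.1% of all genes. Of the 10 rows, 9 were posterior and 7 of these belonged to groups 11 to 13.

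**Figure D1:**
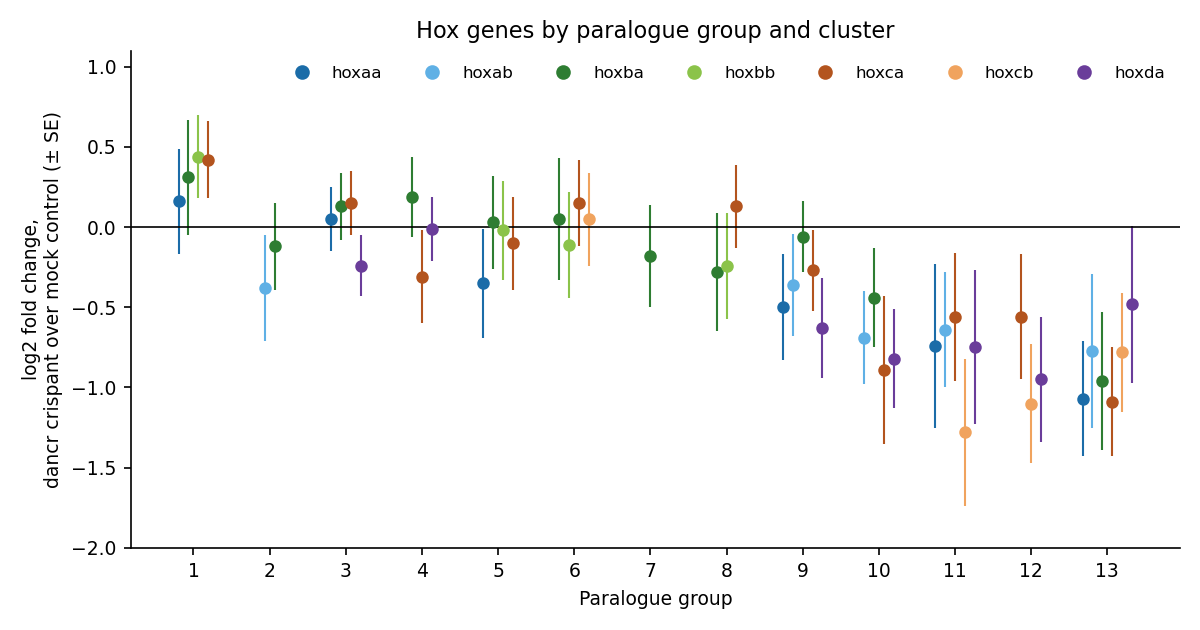
Log2 fold change of crispant over mock control (vertical axis, points, with standard errors as bars) for the 48 Hox genes by paralogue group (horizontal axis) and cluster (colour), from edgeR on 3 crispant and 3 mock control libraries. All 4 genes of group 1 lie above 0, and all 14 genes of groups 11 to 13 lie between -1.28 and -0.48.

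Paralogue group 1 holds genes that pattern the hindbrain, and in the comparison of all 6 libraries it was the only group whose genes all had log2 fold changes above 0, although none passed the test. The summed level of its 4 genes was 176.2, 184.1 and 208.2 CPM in crispants, against 119.5, 153.7 and 154.9 CPM in mock controls. These sums did not overlap, although each gene on its own did. CPM are not scaled by gene length, and the *hoxc1a* row is 8400 bases long. Summed FPKM, which are scaled by length, did overlap. They were 68.55, 77.91 and 76.06 in crispants and 41.39, 55.97 and 71.19 in mock controls. *hoxb1b* (chromosome 12, 27049780 to 27051474), which acts early in hindbrain segmentation, had 75.5, 82.7 and 78.4 CPM in crispants and 39.6, 56.0 and 78.4 CPM in mock controls. The crispants were close together and mock control replicate 3 reached their level. Its log2 fold change was 0.44 (standard error 0.26, adjusted p = 0.999). Leaving out mock control replicate 3 gave 0.74 (adjusted p = 0.211, or 0.0328 with DESeq2), and leaving out mock control replicate 1 gave 0.23 (adjusted p = 0.866). *hoxc1a* had 82.2, 73.5 and 105.8 CPM in crispants and 66.2, 80.0 and 49.1 CPM in mock controls, with a log2 fold change of 0.42 (standard error 0.24, adjusted p = 0.999), and here mock control replicate 3 was the lowest library and the value without it was 0.27. *hoxb1a*, which gives the fourth rhombomere of the hindbrain its identity, had 12.2, 20.3 and 15.9 CPM in crispants and 7.70, 13.1 and 18.4 CPM in mock controls, with a log2 fold change of 0.31 (standard error 0.36, adjusted p = 0.999), or 0.65 without mock control replicate 3. *hoxa1a* had a log2 fold change of 0.16, or 0.46 without that library.

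The other anterior genes showed no common direction. In group 2, *hoxb2a*, a hindbrain gene, had 19.0, 24.1 and 17.9 CPM in crispants and 16.4, 21.0 and 28.9 CPM in mock controls (log2 fold change -0.12, 0.13 without mock control replicate 3), and *hoxa2b*, which gives the second pharyngeal arch its identity, had a value of -0.38, or -0.07 without that library. The groups of libraries overlapped for both. In group 3, *hoxb3a* had 91.8, 125.5 and 129.0 CPM in crispants and 93.3, 116.3 and 107.6 CPM in mock controls (log2 fold change 0.13, adjusted p = 0.999). Its neighbour in rank, *hoxd3a*, was the single anterior gene whose libraries did not overlap, at 32.9, 34.2 and 30.2 CPM in crispants and 35.2, 38.9 and 41.1 CPM in mock controls (log2 fold change -0.24, standard error 0.19, adjusted p = 0.999). In group 4, *hoxb4a*, a gene of the caudal hindbrain, had 19.1, 24.7 and 30.1 CPM in crispants and 19.2, 25.9 and 19.7 CPM in mock controls (log2 fold change 0.19, adjusted p = 0.999). Of these genes, *hoxb3a*, *hoxd3a* and *hoxb4a* have models that overlap those of other Hox genes, as 18 of the 50 rows do, so reads in shared stretches could not be assigned with certainty. No row of groups 11 to 13 overlaps another Hox row. Models of other genes do cover some of them, as *hnrnpa1a* spans all of hoxcb and *tax1bp1b* all of hoxab. On the same strand as *hoxc11b* and *hoxc12b*, *hnrnpa1a* had 5943 to 9969 counts in a library, and reads shared with it were not tested for.

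The central genes act in the trunk, and their log2 fold changes lay between -0.35 and 0.15. None of the 12 had groups that did not overlap. *hoxb8a*, the most abundant of group 8, had 29.96, 52.2 and 56.5 CPM in crispants and 34.4, 48.4 and 85.6 CPM in mock controls (log2 fold change -0.28, standard error 0.37). Mock control replicate 3 was the highest library, and the value without it was 0.17. The same library was the highest for *hoxb5b*, a gene expressed in the trunk mesoderm that includes the fin field, with 23.7, 29.4 and 34.3 CPM in crispants and 20.0, 25.9 and 42.5 CPM in mock controls (log2 fold change -0.02, 0.36 without it). It was also the highest for *hoxb6a*, at 10.9, 18.0 and 17.3 CPM in crispants and 8.37, 14.4 and 22.1 CPM in mock controls (log2 fold change 0.05, 0.45 without it). *hoxb7a*, the single gene of group 7, had 10.2, 15.0 and 11.9 CPM in crispants and 9.45, 13.7 and 18.9 CPM in mock controls (log2 fold change -0.18, 0.11 without mock control replicate 3). The central median moved to 0.17 without mock control replicate 3, when 10 of 12 genes were above 0.

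Groups 9 and 10 formed the step between trunk and tail. Their 10 tested rows had a median log2 fold change of -0.47, with 9 below 0, but without mock control replicate 3 the median was -0.12 and 7 were below 0. *hoxb9a* was the most abundant gene of group 9, with 51.3, 60.9 and 63.7 CPM in crispants and 50.2, 57.2 and 75.8 CPM in mock controls (log2 fold change -0.06, 0.14 without mock control replicate 3), and the groups overlapped. In group 10, *hoxd10a* had 9.74, 11.9 and 10.4 CPM in crispants and 15.2, 14.1 and 27.1 CPM in mock controls, every crispant below every mock control (log2 fold change -0.82, standard error 0.31, adjusted p = 0.82). *hoxa10b* had 10.4, 13.7 and 11.2 CPM in crispants and 14.8, 16.6 and 25.5 CPM in mock controls, again without overlap (log2 fold change -0.69, standard error 0.29, adjusted p = 0.871). Without mock control replicate 3 these values were -0.44 and -0.41. *hoxb10a*, the most abundant of group 10, had 12.02, 17.7 and 15.3 CPM in crispants and 14.7, 17.7 and 28.9 CPM in mock controls (log2 fold change -0.44, adjusted p = 0.999, or -0.09 without mock control replicate 3). The antisense row of *hoxc10a* lies on the minus strand of chromosome 23 from 35982622 to 35989431, across the coding gene on the plus strand. It had 1.79, 2.73 and 2.72 CPM in crispants and 1.61, 2.66 and 1.51 CPM in mock controls (log2 fold change 0.32, standard error 0.41), while that of the coding row was -0.89 (standard error 0.46, adjusted p = 0.996). Without mock control replicate 3 these values were 0.19 for the antisense row and -0.32 for the coding row of *hoxc10a*. The libraries were strand-specific, but the strand setting of the counting is not given in the sources used here.

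**Figure D2:**
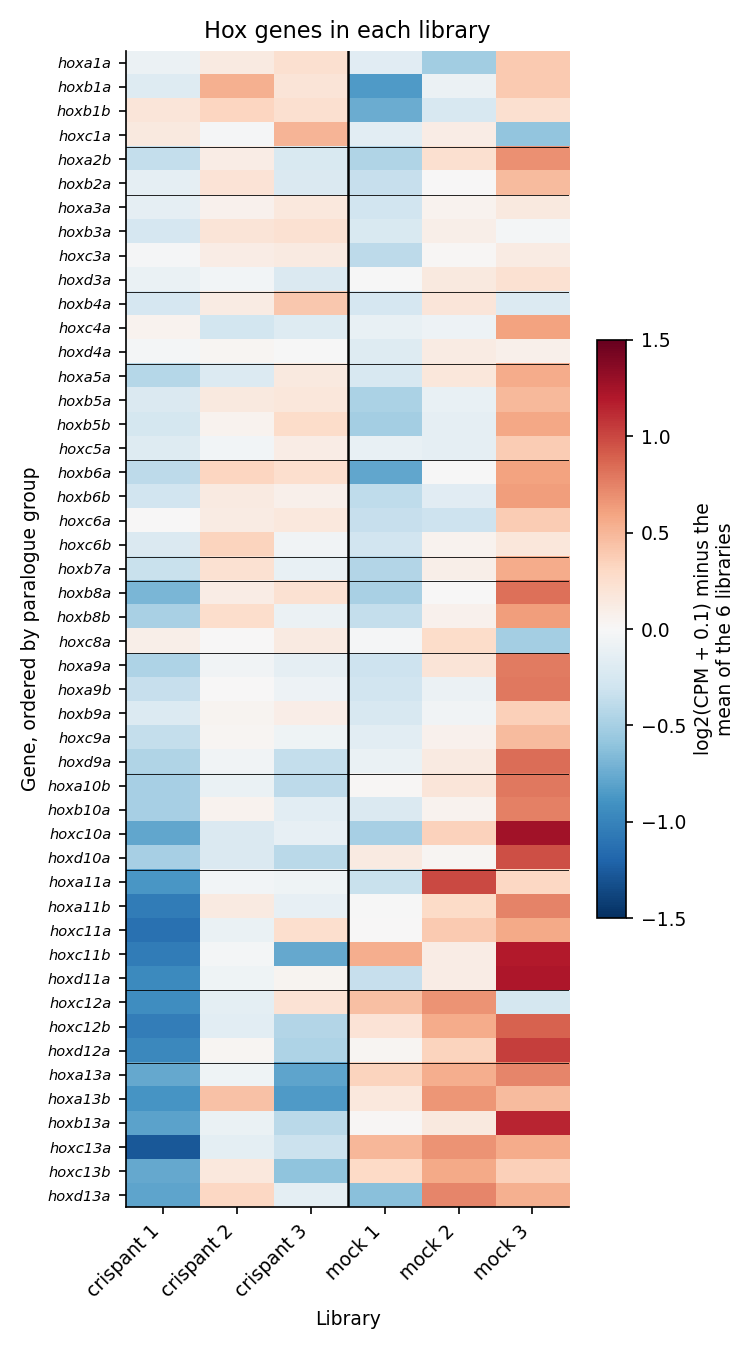
Level of each Hox gene (rows, ordered by paralogue group) in each library (columns, 3 crispants left of the line and 3 mock controls right of it), as log2(CPM + 0.1) minus the mean of the 6 libraries, red above and blue below that mean. Crispant replicate 1 had the lowest value for 21 of the 23 posterior genes, and mock control replicate 3 had the highest for 17 of them.

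The genes of groups 11 to 13 are switched on last, in the tailbud and later in the fins. Their summed level was 36.5, 74.3 and 64.8 CPM in crispants, against 82.0, 101.9 and 121.7 CPM in mock controls, without overlap. Crispant replicate 1 was the lowest of the 3 crispants. In group 11 all 5 genes had negative log2 fold changes and those of the hoxc family spread widest. *hoxc11b* (chromosome 11, 2121780 to 2125756) had the most negative value of all Hox genes, with 1.14, 2.40 and 1.41 CPM in crispants and 3.63, 2.66 and 5.74 CPM in mock controls (log2 fold change -1.28, standard error 0.46, adjusted p = 0.768). The libraries did not overlap, although crispant replicate 2 and mock control replicate 2 were close. *hoxc11a* had 3.18, 6.52 and 8.40 CPM in crispants and 7.04, 9.23 and 10.4 CPM in mock controls, with overlap (log2 fold change -0.56, adjusted p = 0.999). *hoxa11b*, the most abundant of the group, had 7.73, 17.8 and 14.8 CPM in crispants and 16.1, 19.8 and 27.1 CPM in mock controls, with overlap (log2 fold change -0.64, adjusted p = 0.996, or -0.40 without mock control replicate 3).

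In group 12 the summed level was 9.09, 17 and 16.4 CPM in crispants and 21.6, 26.2 and 27.1 CPM in mock controls. *hoxc12b* (chromosome 11, 2131243 to 2133658) had 1.85, 3.48 and 2.84 CPM in crispants and 4.49, 5.79 and 7.25 CPM in mock controls, with a gap between the groups (log2 fold change -1.10, standard error 0.37, adjusted p = 0.726). *hoxd12a* had 3.28, 6.62 and 4.71 CPM in crispants and 6.68, 8.21 and 13.5 CPM in mock controls, where the highest crispant and the lowest mock control nearly met (log2 fold change -0.95, standard error 0.39, adjusted p = 0.868). Its value was -0.60 without mock control replicate 3. *hoxc12a* had 3.96, 6.90 and 8.86 CPM in crispants and 10.4, 12.2 and 6.34 CPM in mock controls. Here the overlap came from mock control replicate 3, which was the lowest mock control, and the log2 fold change of -0.56 (adjusted p = 0.999) was -0.77 without it.

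Group 13 genes mark the end of the body axis and the distal fins. Their summed level was 11.8, 24.0 and 16.7 CPM in crispants and 28.2, 35.1 and 36.6 CPM in mock controls, so that the highest crispant lay below the lowest mock control. *hoxc13a* (ENSDARG00000070353, chromosome 23, 35954141 to 35957083), the most abundant of the group, had 3.53, 7.80 and 6.87 CPM in crispants, against 12.3, 13.8 and 12.8 CPM in mock controls. The 3 mock controls were close together and all crispants were well below them. Its log2 fold change was -1.09 (standard error 0.34) with the lowest p of any Hox gene (adjusted p = 0.686). Leaving out mock control replicate 3 also gave -1.09 (adjusted p = 0.276). The adjusted p was 0.168 with DESeq2 on all libraries, and DESeq2 without that library gave -1.1 (adjusted p = 0.0674). The highest adjusted p over the alternatives was 1.0. *hoxa13a* (chromosome 19, 20156555 to 20158340), a gene of the distal fins, had 1.93, 3.2 and 1.89 CPM in crispants and 4.24, 4.90 and 5.60 CPM in mock controls, again with a gap (log2 fold change -1.07, standard error 0.36, adjusted p = 0.725). *hoxb13a* had 1.74, 2.90 and 2.33 CPM in crispants and 3.16, 3.44 and 6.97 CPM in mock controls without overlap (log2 fold change -0.96, standard error 0.43, adjusted p = 0.941), and the value was -0.49 without mock control replicate 3. *hoxc13b* had 2.20, 4.25 and 2.48 CPM in crispants and 4.71, 5.68 and 4.90 CPM in mock controls (log2 fold change -0.78, adjusted p = 0.962). The libraries overlapped for *hoxa13b* (log2 fold change -0.77) and *hoxd13a* (log2 fold change -0.48).

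**Figure D3:**
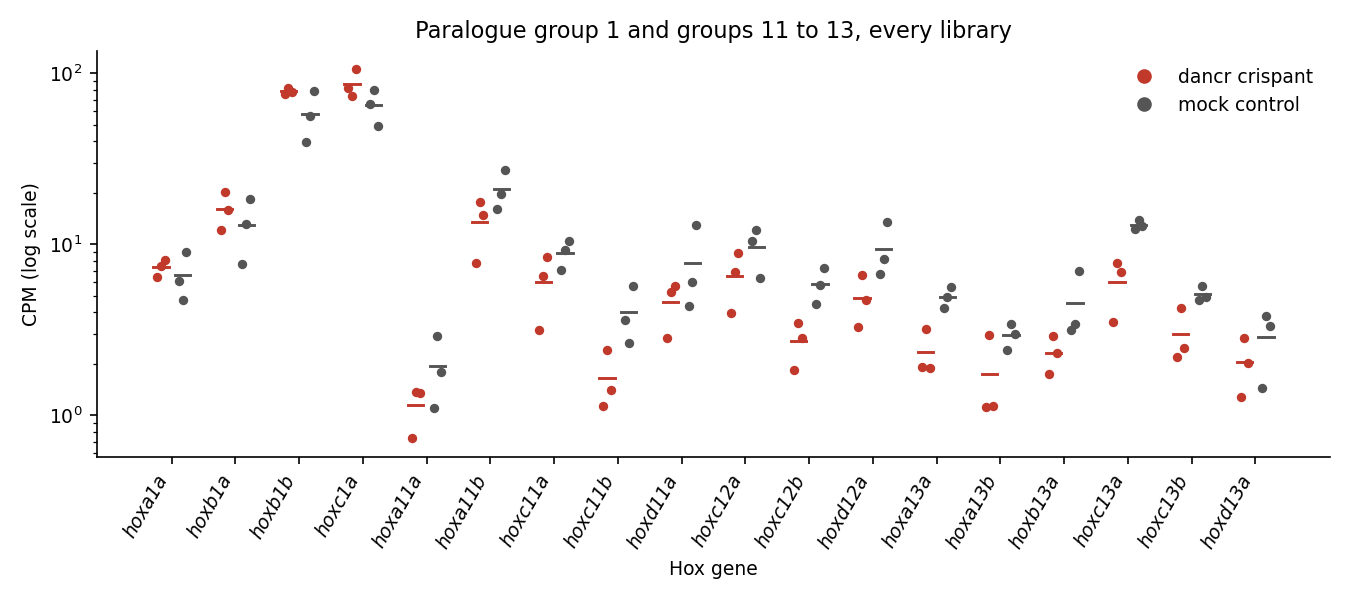
Level in CPM (vertical axis, log scale) of the 4 genes of paralogue group 1 and the 14 genes of groups 11 to 13 (horizontal axis) in each crispant (red, left) and mock control (grey, right) library, with the group mean as a line. *hoxc13a* lies between 3.53 and 7.80 CPM in crispants and between 12.3 and 13.8 CPM in mock controls.

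Without mock control replicate 3, groups 11 to 13 still had a median log2 fold change of -0.76 with 14 of 14 below 0, and 5 of the 14 had lower values at an unadjusted p under 0.05, against 5.28% of all genes. The 3 crispants lay entirely below the remaining mock controls for 8 of the 14, or 57.1%, against 15.2% of all genes. For all Hox rows this share was 22.4%, closer to that of all genes. The posterior median was then -0.41, and that of all Hox rows was -0.04, against -0.28 with 6 libraries. Leaving out each library in turn gave medians between -1.11 and -0.57 for groups 11 to 13. Without crispant replicate 1, the lowest library for 21 of the 23 posterior genes, the posterior median was -0.52.

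A ratio of Hox levels within a library does not depend on how libraries are scaled to each other. The summed level of group 13 over that of group 1 was 0.0668, 0.13 and 0.0804 in crispants, against 0.236, 0.228 and 0.236 in mock controls, or 0.0925 ± 0.0333 and 0.234 ± 0.00447 (SD, n = 3 each). In these CPM sums mock control replicate 3 did not differ from the other mock controls, but with gene length taken into account it did. Group 13 took 4.8%, 4.68% and 3.81% of the summed Hox FPKM in mock controls, and group 1 took 9.84%, 10.6% and 10.5%. In crispants these shares were 1.94%, 3.07% and 2.28% for group 13 and 16.4%, 14.5% and 14.6% for group 1. The ratio of groups 11 to 13 over groups 1 to 4 was 0.0682, 0.122 and 0.102 in crispants and 0.181, 0.178 and 0.205 in mock controls. That of groups 9 and 10 over groups 1 to 4 was 0.263, 0.295 and 0.269 in crispants and 0.353, 0.328 and 0.48 in mock controls, also without overlap. Central over anterior levels overlapped, at 0.316, 0.378 and 0.367 in crispants and 0.351, 0.36 and 0.513 in mock controls. An exact permutation test of 3 against 3 libraries cannot give a two-sided p below 0.1, and these ratios were chosen with earlier values in view, so they stand as descriptions.

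**Figure D4:**
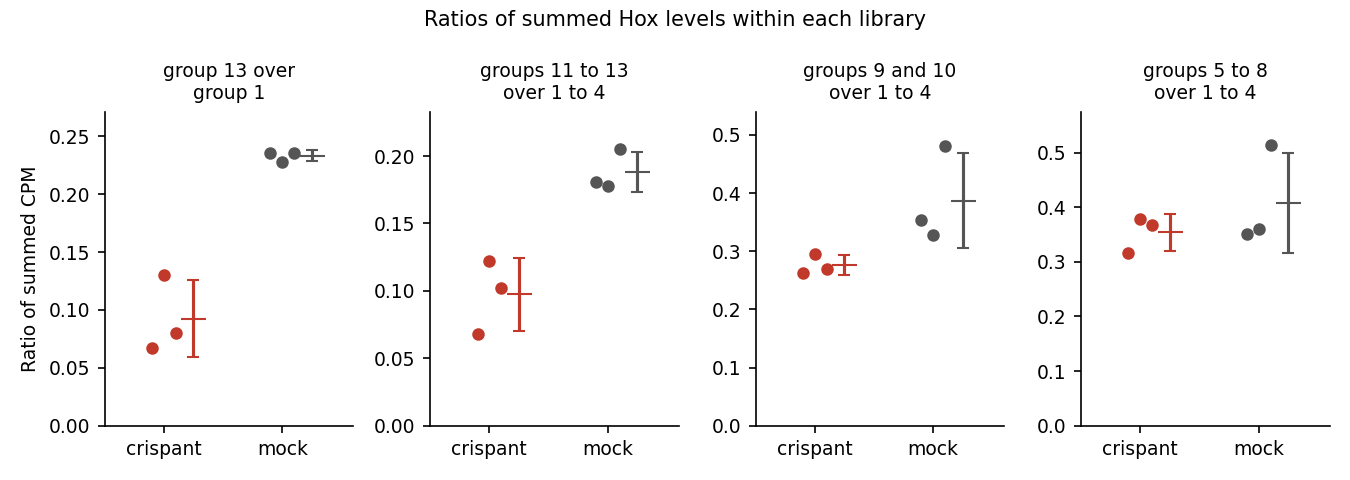
Ratio of summed CPM between paralogue groups within each library (vertical axes from 0), for crispants (red, left) and mock controls (grey, right), with mean and SD beside the points (n = 3 each). Group 13 over group 1 was 0.0668 to 0.13 in crispants and 0.228 to 0.236 in mock controls, while groups 5 to 8 over groups 1 to 4 overlapped.

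The order by paralogue group was seen in most clusters. Across the 48 genes, Spearman's rho between paralogue group number and log2 fold change was -0.85, and -0.82 without mock control replicate 3. This is a description across genes that share libraries. Within clusters rho was -1.0 for hoxaa (6 genes, chromosome 19) and hoxbb (4 genes, chromosome 12), -0.82 for hoxca (11 genes, chromosome 23), -0.80 for hoxab (5 genes, chromosome 16) and hoxba (11 genes, chromosome 3), -0.57 for hoxda (7 genes, chromosome 9) and -0.20 for hoxcb (4 genes, chromosome 11). In hoxcb the break fell between *hoxc6b*, with a log2 fold change of 0.05 (0.16 without mock control replicate 3), and its posterior genes *hoxc11b*, *hoxc12b* and *hoxc13b*, all without overlap. Posterior over central levels in hoxcb were 0.654, 0.865 and 0.753 in crispants and 1.69, 1.48 and 1.71 in mock controls. In hoxca, posterior over anterior levels were 0.208, 0.338 and 0.286 in crispants and 0.435, 0.44 and 0.551 in mock controls. The same ratio did not overlap in hoxaa (0.14 to 0.17 in crispants, 0.201 to 0.276 in mock controls) or hoxda (0.467 to 0.655 in crispants, 0.701 to 1.19 in mock controls). It overlapped in hoxab and hoxba. The hoxbb cluster has no posterior gene, and its anterior gene *hoxb1b* over its central genes was 1.71, 1.37 and 1.29 in crispants and 0.975, 1.08 and 0.934 in mock controls, higher in every crispant.

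**Figure D5:**
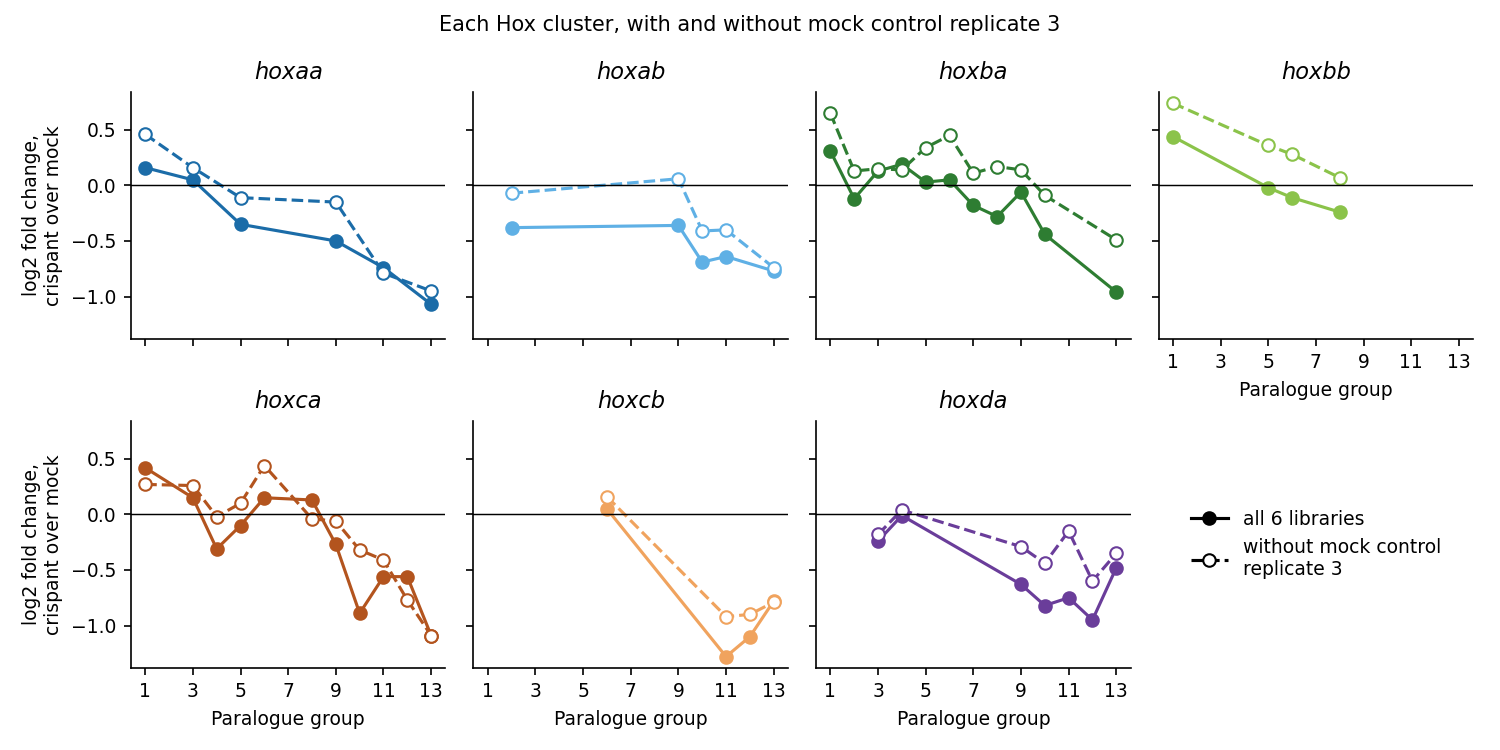
Log2 fold change of crispant over mock control (vertical axes) against paralogue group (horizontal axes) in each of the 7 Hox clusters, with all 6 libraries (filled, solid) and without mock control replicate 3 (open, dashed). In hoxaa and hoxbb the values with all 6 libraries fall at every step toward higher groups, with rho of -1.0 each, and in hoxcb the 3 posterior genes lie at or below -0.78.

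Per length, the Hox genes differed widely in level. Mean FPKM over the 6 libraries was between 0.699 and 42.0 for the tested rows, with *hoxb1b* highest. Its FPKM was 48.4 ± 2.22 in crispants and 35.5 ± 11.6 in mock controls (SD, n = 3 each). Of the summed Hox FPKM in a library, hoxba took 33.0% ± 1.95 in crispants and 31.1% ± 1.24 in mock controls. Paralogue group 1 took 15.2% ± 1.08 in crispants and 10.3% ± 0.399 in mock controls, without overlap. Groups 9, 10, 11, 12 and 13 each took a lower share in all 3 crispants, with no overlap. For group 12 crispant replicate 3 (2.86%) and mock control replicate 3 (2.87%) nearly met. So did crispant replicate 1 (13.5%) and mock control replicate 2 (13.7%) for group 9. Shares are parts of a whole, so a higher share of group 1 lowers the others and these are not separate observations. Group 10 took 5.58% ± 0.297 in crispants and 7.74% ± 1.03 in mock controls, and group 13 took 2.43% ± 0.579 in crispants and 4.43% ± 0.538 in mock controls. The clusters hoxab and hoxda also took a lower share in every crispant, and hoxbb a higher share. All Hox rows together took 0.0943%, 0.108% and 0.126% of the counts in crispants and 0.091%, 0.111% and 0.098% in mock controls, which overlap. Gene length did not follow the same order, with a rho of 0.11 between length and log2 fold change over the 48 genes.

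After the genome duplication of teleost fish some Hox genes were kept as duplicates, and 11 such duplicate pairs were present. The log2 ratio of the a copy over the b copy was set side by side between groups as a description, since an exact two-sided permutation test of 3 against 3 libraries cannot give a p below 0.1. For *hoxa9* the ratio of a over b was lower in all 3 crispants (difference -0.16), and for the other 10 pairs the libraries overlapped. The *hoxa9* groups nearly met, as the a copy took 33.9% to 34.9% of the pair's FPKM in crispants and 35.4% to 40.2% in mock controls. Its exact permutation p was 0.1, the lowest this test can give, with no adjustment for the 11 pairs. The pairs whose log2 fold changes differed most were *hoxc11* (-0.56 for a and -1.28 for b) and *hoxc12* (-0.56 for a and -1.10 for b). The difference in the log2 ratio was 0.63 for *hoxc11* and 0.54 for *hoxc12*, with overlap. The *hoxc12* pair rested on mock control replicate 3, in which the a copy took 69.4% of the pair's FPKM, against 83.8% to 89.0% in crispants and 84.6% and 85.8% in the other mock controls.

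Hox proteins bind DNA together with TALE homeodomain partners of the Pbx, Meis and Pknox families. All 14 of these genes had log2 fold changes below 0, with a median of -0.20, although with library totals 9 did, and 3 were lower in every crispant, against 5.44% of all genes. Without mock control replicate 3, 10 of the 14 were below 0. *pknox2* had 7.35, 8.50 and 5.48 CPM in crispants and 12.4, 11.3 and 11 CPM in mock controls (log2 fold change -0.70, standard error 0.28, adjusted p = 0.851). *pknox1.1* had 23.6, 26.9 and 26.1 CPM in crispants and 33.1, 34.4 and 43.2 CPM in mock controls (log2 fold change -0.53, standard error 0.20, adjusted p = 0.823). Every crispant was below every mock control for both.

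Retinoic acid switches on anterior Hox genes, and Cyp26a1 breaks it down. The 18 tested genes of the retinoic acid pathway had a median log2 fold change of -0.03, with 8 above 0, or 0.17 with 14 above 0 when library totals were used. *cyp26a1* was the single one of the 18 without overlap, against 6.5% of all genes higher and 5.44% lower in every crispant. It had 68.9, 88.6 and 60.4 CPM in crispants and 35.6, 51.3 and 52.4 CPM in mock controls, higher in every crispant (log2 fold change 0.65, standard error 0.24, adjusted p = 0.787). The 18 tested regulators of posterior growth had a median of 0.11, with 11 above 0. Their highest value was that of *wnt8a*, a ligand of the posterior mesoderm, at 0.706, 0.625 and 0.243 CPM in crispants and 0.222, 0.417 and 0.14 CPM in mock controls with overlap (log2 fold change 0.98, adjusted p = 0.999). In the list 1 gene was higher in every crispant, against 6.5% of all genes, and 3 were lower, against 5.44%. The higher one was *bmp4*, a BMP ligand (log2 fold change 0.27, or 0.14 without mock control replicate 3). Of the lower ones, *eve1*, a homeobox gene of the tailbud, had 1.49, 1.6 and 1.46 CPM in crispants and 1.63, 2.5 and 4.38 CPM in mock controls (log2 fold change -0.90, adjusted p = 0.978, or -0.44 without mock control replicate 3). *gdf11*, which in mice marks the passage from trunk to tail, had 3.99, 3.80 and 6.65 CPM in crispants and 7.56, 6.80 and 7.39 CPM in mock controls (log2 fold change -0.59, adjusted p = 0.996), and the third was *evx2*, a neighbour of hoxda. Libraries overlapped for *ta* (log2 fold change 0.14), *cdx4* (0.12), *tbx6* (0.72), *tbx16* (-0.03), *msgn1* (-0.06) and *tbx6l* (-0.61) of the same list. The 10 regulators of hindbrain segmentation had a median of -0.06, with 5 above 0, and 0.08 with library totals. Among them 1 was higher in every crispant, against 6.5% of all genes, and 0 were lower, against 5.44%. The higher one was *hnf1ba* (log2 fold change 0.44, adjusted p = 0.996).

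Polycomb and Trithorax proteins keep Hox genes silent or active. Their 28 tested genes had a median log2 fold change of -0.16, with 6 above 0, or 0.01 with 15 above 0 when library totals were used. *cbx7a*, which encodes a chromodomain protein of the Polycomb complex PRC1, stood apart from the rest at 35.2, 24.1 and 34.7 CPM in crispants and 2.24, 1.62 and 3.05 CPM in mock controls (log2 fold change 3.77, standard error 0.34). Its adjusted p was 0.0591 with edgeR and 3.02e-24 with DESeq2, which called it. The next highest value was that of *ezh1*, a histone methyltransferase of PRC2, at 6.95, 7.95 and 8.69 CPM in crispants and 6.95, 5.32 and 0.98 CPM in mock controls (log2 fold change 0.83, adjusted p = 0.999, or 0.37 without mock control replicate 3). *bmi1a*, also of PRC1, was higher in every crispant, at 63.4, 60.4 and 67.2 CPM in crispants and 42.8, 47.1 and 55.2 CPM in mock controls (log2 fold change 0.40, adjusted p = 0.962).

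Markers of the spinal cord, in which Hox genes are used along its length, mostly had negative values, although none was called. Of 12 tested spinal cord markers, 11 had log2 fold changes below 0 with a median of -0.53, and 5 were lower in every crispant, against 5.44% of all genes. The median of these markers was -0.31 with library totals (10 below 0) and -0.37 without mock control replicate 3 (11 below 0). Their summed level was 191.5, 215.2 and 179.4 CPM in crispants and 248.1, 275.4 and 355.7 CPM in mock controls. No defining marker of this list was at 0. *nkx6.1*, a progenitor gene of the ventral spinal cord, had 27.1, 31.5 and 25.3 CPM in crispants and 40.1, 42.2 and 54.5 CPM in mock controls (log2 fold change -0.71, standard error 0.21, adjusted p = 0.681). *dbx1a*, of intermediate progenitors, had 30.5, 34.5 and 23.0 CPM in crispants and 40.4, 47.1 and 75.7 CPM in mock controls (log2 fold change -0.89, standard error 0.29, adjusted p = 0.71, or -0.56 without mock control replicate 3). The 14 forebrain and midbrain markers, where Hox genes are silent, had a median of -0.21, with 10 below 0 (median -0.06 with library totals). Of the 14, 3 were lower in every crispant, against 5.44% of all genes. Their summed levels were 317.2, 342.0 and 246.4 CPM in crispants and 345.5, 344.6 and 363.6 CPM in mock controls, without overlap. Here crispant replicate 2 and mock control replicate 2 nearly met, and crispant replicate 3 was the lowest library. Among these markers *otx2* had 28.8, 30.5 and 19.2 CPM in crispants and 40.1, 39.2 and 45.7 CPM in mock controls (log2 fold change -0.67, standard error 0.24, adjusted p = 0.758). Somite and early muscle markers had a median of -0.15 over 12 genes (0.01 with library totals), with summed levels between 338.8 and 527.7 CPM in crispants and between 315.1 and 579.4 CPM in mock controls. Of these 12, 1 was lower in every crispant, against 5.44% of all genes, and 0 were higher, against 6.5%. The lower one was *myf5* (log2 fold change -0.62, adjusted p = 0.996). Pectoral fin bud markers had a median of -0.19 over 9 genes, with summed levels between 281.0 and 340.1 CPM in crispants and between 293.8 and 513.0 CPM in mock controls. The lowest values of this list, of which 7 were below 0, were those of actinodin genes of the fin fold. *and2* had 5.73, 4.35 and 17.4 CPM in crispants and 88.7, 7.09 and 51.3 CPM in mock controls, with overlap (log2 fold change -2.42, standard error 0.85, adjusted p = 0.763), and *and1* had a log2 fold change of -1.70 (adjusted p = 0.863), also with overlap. In the same list *prdm1a*, a transcription factor of the fin bud, slow muscle and neural crest, was higher in every crispant, at 66.9, 89.4 and 63.8 CPM in crispants and 48.5, 51.3 and 39.2 CPM in mock controls (log2 fold change 0.66, standard error 0.21, adjusted p = 0.71). The part of spinal cord or other tissue content in the Hox values was not tested.

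Genes beside the clusters had median values near 0. The 3 tested genes nearest each cluster on its posterior side, 21 in all, had log2 fold changes with a median of -0.08, between -0.90 and 0.53, with 1 higher and 2 lower in every crispant. Those on its anterior side had a median of -0.01, between -3.1 and 1.28, with 3 higher and 1 lower in every crispant. Among all genes tested, 6.5% were higher and 5.44% lower in every crispant. The extremes were *npvf* beside hoxaa, a neuropeptide gene with at most 54 counts in a library (log2 fold change -3.1, adjusted p = 0.682), and *nfe2l1a* beside hoxba, a transcription factor gene (log2 fold change 1.28, adjusted p = 0.585). The lowest on the posterior side was *eve1* beside hoxba, and *evx2* beside hoxda, another even-skipped homeobox gene, had 4.56, 3.5 and 5.61 CPM in crispants and 6.34, 5.68 and 8.47 CPM in mock controls (log2 fold change -0.58, adjusted p = 0.999, or -0.38 without mock control replicate 3). *evx1* beside hoxaa had a log2 fold change of -0.38 with overlap. Overlapping the spans of the clusters were 24 features that are not Hox genes, some of them reaching beyond a span. Of these, 13 were tested, with a median of -0.11, 2 higher and 0 lower in every crispant. The 9 miRNA rows inside the clusters, of the mir-10 and mir-196 families and 1 with a clone name, had at most 7 counts in any library of these polyA selected reads and were not tested.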

How the data were processed

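RNA-seq of 6 libraries of whole zebrafish embryos, 3 *dancr* del F0 crispants and 3 mock controls, was analysed; groups and replicate numbers are those of the sample labels. The authors deposited raw read counts per gene, which a Novogene pipeline made from polyA selected, strand-specific paired reads of 150 bases after HISAT2 alignment to the GRCz10 (danRer10) genome. How reads were counted, the strand setting and the annotation release are not given in the sources used here. The authors also deposited FPKM values, in which each count is divided by gene length and a size-factor scaled total; the values were found to fit this. Their table further holds a mean per group and the results of a DESeq2 comparison (fold changes with raw and adjusted p-values), none of which was used. Of the columns with values per library 0 were left unused, and 0 rows lacked a gene identifier.

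Counts were tested with edgeR 4.0.16 (TMM, filterByExpr with a minimum count of 10, glmQLFit and glmQLFTest) in R 4.3.3 without covariates, and p-values were adjusted by Benjamini-Hochberg over all 20812 genes that passed. CPM are counts scaled to the TMM-adjusted total of each library. Functions were tested on simulated counts. The p-values measure the spread between 3 and 3 biological replicates. Alternatives were DESeq2 1.42.0, limma-voom (limma 3.58.1), DESeq2's size factors, library totals, other filters and thresholds, empirical Bayes in its robust form, blocking on replicate number and leaving out each library. Leaving out the 2 repeated rows, and DESeq2 with a library left out, were added after seeing the data.

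The Hox rows, the axial classes and the other gene lists, including tissue markers, were chosen with earlier results of these data known. The Hox genes described first were the most abundant of each paralogue group by FPKM, the 5 highest and 5 lowest log2 fold changes, every gene at an unadjusted p under 0.05, and the duplicate pairs that differed most. Listed genes outside the Hox clusters were named at an unadjusted p under 0.05 without overlap. Others, such as *hoxd3a*, *hoxc13b*, *eve1*, *evx2*, *gdf11*, *ta*, *cdx4*, *tbx6*, *tbx16*, *msgn1*, *tbx6l*, *bmi1a*, *ezh1*, *wnt8a*, *bmp4*, *hnf1ba*, *myf5*, *and1*, *and2*, *npvf* and *nfe2l1a*, were also named after their values were seen or to complete a group.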

Additional observations from a re-analysis of the deposited data

How the results depend on the processing

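No Hox gene was called under any of the 16 alternatives, with an adjusted p no lower than 0.168 for any named Hox gene. DESeq2 with a library left out, added after seeing the data, also called 0, but with no minimum fold change it passed 1 gene without mock control replicate 3, *hoxb1b* (0.73, adjusted p = 0.0328), and *hoxc13a* had an adjusted p of 0.0674. Of 336 values of the 24 named rows under the alternatives, 319 kept their direction. The 17 that did not belonged to 6 genes, whose main log2 fold changes lay between -0.28 (*hoxb8a*) and 0.05 (*hoxb6a*). With library totals in place of composition factors, *hoxb2a* was 0.09, *hoxb5b* 0.23, *hoxb7a* 0.03 and *hoxb9a* 0.15, and 4 Hox rows were entirely higher in crispants, against 0 with composition factors and 11.2% of all genes. *hoxb5b* was 0.06 with limma-voom. Leaving out each library in turn gave ranges of -0.29 to 0.13 for *hoxb2a*, -0.23 to 0.36 for *hoxb5b*, -0.24 to 0.45 for *hoxb6a*, -0.40 to 0.11 for *hoxb7a*, -0.54 to 0.17 for *hoxb8a* and -0.18 to 0.14 for *hoxb9a*. The high values of *hoxb2a*, *hoxb5b*, *hoxb6a*, *hoxb7a*, *hoxb8a* and *hoxb9a* all came without mock control replicate 3. Leaving out a library gave 0 to 3 rows entirely higher, against 9.43% to 14.2% of all genes, and 10 to 23 entirely lower, against 8.27% to 15.4%, the 23 without mock control replicate 1. The cause of these differences was not tested. The posterior median stayed negative in all alternatives, between -0.84 and -0.41, the anterior one lay between 0.01 and 0.30, and the central one between -0.24 and 0.18. Deviations of same-numbered crispant and mock control libraries had correlations of 0.232, -0.058 and -0.117. Those of libraries with different numbers lay between -0.385 and 0.292. With the replicate number as a block 0 Hox genes were called, the posterior median was -0.68, and *hoxb5b* was 0.04.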
